A study of Mus musculus with 15 samples.

Results

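The mitochondrial respiratory chain subunits that are coded in the nucleus were followed in RNA-seq libraries of mouse ventricles at embryonic day 11.5 (E11.5). The members were the protein-coding genes whose symbols start with Ndufa, Ndufb, Ndufc, Ndufs, Ndufv, Uqcr, Cox4i, Cox5, Cox6, Cox7, Cox8 or Atp5, together with Sdha, Sdhb, Sdhc, Sdhd, Cyc1 and Cycs. Pseudogenes and the Ndufaf assembly factors were left out. This gave 88 of the 78317 genes in the tables: 36 of complex I, 4 of complex II, 9 of complex III, 20 of complex IV, 18 of complex V and cytochrome c itself. They carry 87 symbols, because Atp5o names 2 identifiers. Of the 88 genes, 85 passed the filter on low counts. The rule takes symbols, so it also holds Atp5s, coupling factor B, and Cox7a2l, a factor of respiratory supercomplexes. Ndufa4 is counted with complex IV, where its product is found.

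The respiratory chain moves electrons from NADH (complex I) and succinate (complex II) through complex III and cytochrome c to oxygen (complex IV), and complex V makes ATP with the proton gradient that this builds. Most subunits are coded in the nucleus and imported, while a small set of core subunits of complexes I, III, IV and V is coded in mitochondrial DNA. Several nuclear subunits come in isoforms, some of which replace their ubiquitous relatives in heart and skeletal muscle as the heart matures.

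In both lines Atf4, which codes for a stress-response transcription factor, can be deleted by Xmlc2-Cre, a Cre driven in cardiomyocytes, so other cells of the ventricle keep the gene. In the line called CDS the floxed part is exons 2 and 3, with the polyadenylation signal kept, and in the line called PAS it is that signal. The groups were CDS knockout (n = 4), CDS control (n = 4), PAS knockout (n = 4) and PAS control (n = 3), all untreated C57BL/6 embryos. The labels do not say whether controls carried Cre, nor how many embryos made up a sample. The count of the whole Atf4 gene was 39.5, 48.1, 45.3 and 45.0 CPM in CDS knockouts and 114, 112, 116 and 115 CPM in CDS controls, where CPM stands for counts scaled to a common library size. In the PAS line it was 303, 292, 288 and 259 CPM in knockouts and 98.8, 92.1 and 99.9 CPM in controls. Atf4 was thus lower in every CDS knockout and higher in every PAS knockout than in the controls, with log2 changes of -1.36 ± 0.05 and 1.56 ± 0.06 (SE; edgeR, Benjamini-Hochberg adjusted p = 1.25e-13 and 4.25e-14). A whole-gene count does not check the removal of a polyadenylation signal, so the libraries labelled PAS knockout are called so from their labels alone.

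Libraries held 22623499 to 46472141 counts, and every CDS library was deeper than every PAS library. The members took 1.57% to 1.82% of them. Cardiomyocyte markers were abundant in all libraries, with summed levels of 41294 to 48526 CPM. A list of neuron and choroid plexus genes summed to 58.4 to 262 CPM in CDS libraries and to 40.0 to 44.3 CPM in the PAS line. CDS knockouts 3 and 4 had the high sums, at 200 and 262 CPM, against 58.4 to 84.4 CPM in the other CDS libraries. CDS knockout 3 stood apart from its replicates, with 3.24% of its counts in 1 unnamed gene, ENSMUSG00000119584, against 0.191% to 0.643% in the other libraries. In bulk tissue, fewer cells of a type and less RNA per cell cannot be told apart.

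Levels between genes were compared as CPM per kilobase of summed exons, averaged over the 15 libraries. Genes with exons of several isoforms are understated on this scale, since the length sums them all. Complex V held the most abundant message, Atp5a1, the catalytic-head subunit alpha, with 658 CPM per kb. Atp5b, its catalytic partner subunit beta, followed within the complex with 323 CPM per kb. Complex IV came next, with Cox8a, its smallest subunit in the ubiquitous isoform, at 468 CPM per kb and Cox6b1, which faces the intermembrane space, at 412 CPM per kb. In complex III the highest levels were those of Uqcr11, a small accessory subunit, with 202 CPM per kb and Uqcrfs1, the Rieske iron-sulfur protein, with 182 CPM per kb. In complex II they were those of Sdhd, a membrane anchor, with 199 CPM per kb and Sdha, the flavoprotein that oxidises succinate, with 144 CPM per kb. In complex I, Ndufc2, a membrane-arm subunit, stood at 143 CPM per kb. Uqcr10, another small subunit of complex III, stood at 89.5 CPM per kb. Cycs, the mobile electron carrier, stood at 64.8 CPM per kb. The median over detected members was 56.5 CPM per kb in complex I, 126 in complex II, 145 in complex III, 142 in complex IV and 80.5 in complex V. The order depends on the length used. Per kb of the main mRNA, Atp5g3 stood at 758 and Atp5b at 713 CPM per kb, both above Cox8a at 527. The order of genes and complexes given here thus holds for summed exons only.

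**Figure D1:**
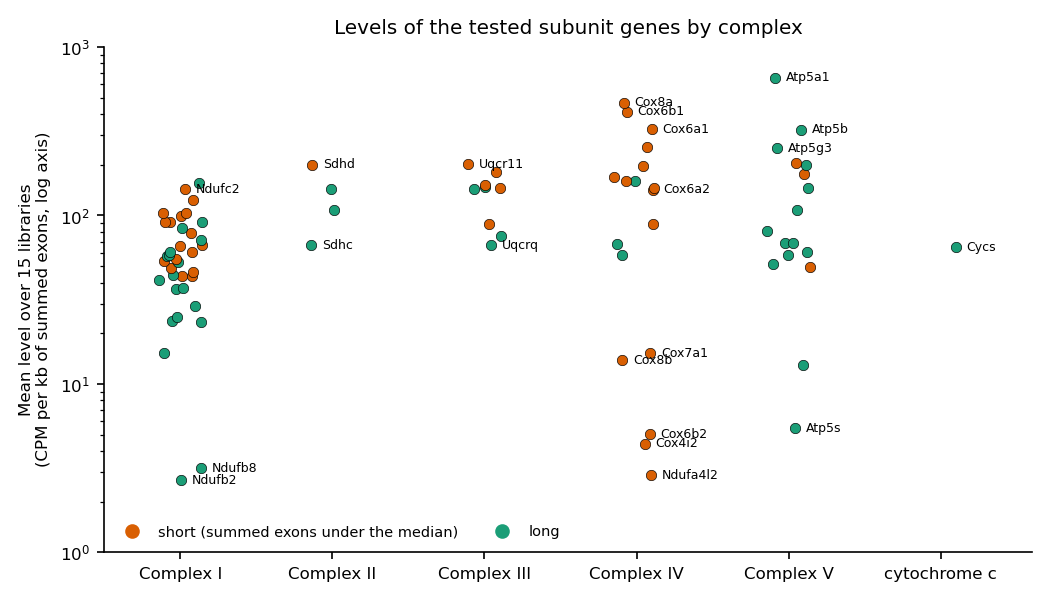
Mean level of each tested subunit gene over the 15 libraries, in CPM per kb of summed exons on a log axis, by complex. Orange points are short genes and green points long genes. Atp5a1 at 658 is highest, and the heart and hypoxia isoforms of complex IV lie well below the ubiquitous ones, except Cox6a2 at 142.

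Ndufb8 and Ndufb2, both accessory subunits of complex I, stood at only 3.16 and 2.67 CPM per kb. In the annotation used for counting, 468 of the 3146 exon bases of Ndufb8 also belong to Gm20538, and 466 of the 5628 exon bases of Ndufb2 also belong to Braf, Gm16272 or Gm42420. For Uqcr10, whose level is given above, it is 336 of 584 exon bases, shared with an unnamed gene on the opposite strand. How far such sharing lowered the counts of these genes was not tested. In all, 43 of the 88 members share exon bases with another gene, 40 of them on the opposite strand, which the counting did not separate. The second Atp5o identifier shares all 530 of its exon bases and had no counts in any library.

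The isoform sets showed a ubiquitous pattern with a single strong exception. Cox6a2, the heart and muscle isoform of a regulatory subunit of complex IV, made up 30.3% of Cox6a1 plus Cox6a2, calculated from counts per kb and averaged over the 15 libraries. Its 96.5 CPM stood beside 229 CPM for Cox6a1. Cox7a1, the muscle partner of Cox7a2, made up 8.25% of its pair. Cox8b, the heart and muscle partner of Cox8a, made up 2.85% of its set. Cox4i2, a lung and hypoxia isoform, made up 1.72% beside Cox4i1, and Ndufa4l2, induced in hypoxia, 1.95% beside Ndufa4. Cox6b2, known from testis, made up 1.21% beside Cox6b1. Cox7b2 reached a mean of 0.0695 CPM beside 239.6 CPM for Cox7b, and was too low to test. Cox8c, a testis isoform, had 0 of 476349042 counts, which allows a level of up to 0.0063 CPM by counting error alone. Among the c-ring genes of ATP synthase, which code for the same mature protein, Atp5g3 made up 65.5%, Atp5g2 21.004% and Atp5g1 13.5%. Per length of the main mRNA in place of all exons, Cox6a2 made up 26.1% and Atp5g3 76.1%.

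The first comparison asked whether subunit messages changed in ventricles labelled CDS knockout. None of the 85 tested members passed the test there (edgeR quasi-likelihood fit, p adjusted by Benjamini-Hochberg over 20269 genes), against 0.0543% of all genes called. DESeq2 and limma-voom called 0 of them as well. At an unadjusted p under 0.05 there were 4 members, all of them lower, or 4.71% against 2.62% of all genes. Log2 changes were below 0 for 67 of 85 members, or 78.8% against 50.6% of all genes, with a median of -0.04 against -0.00. Here and below, percentages of all genes refer to all tested genes, which were not matched to the members in level or length. The comparison with 50.6% thus does not give the excess over genes of like level and length. Mitochondrial ribosomal protein genes gave 62 of 77 below 0. Cardiomyocyte markers gave 13 of 15 below 0, with a median of -0.07 and values of -0.13 ± 0.05 for Actc1 and -0.14 ± 0.06 for Myh7 (SE), contractile proteins, neither of them called. Endothelium markers gave 11 of 14 below 0, with a median of -0.08 and 5 lower at an unadjusted p under 0.05. Mesenchyme markers gave 1 of 11 below 0, with a median of 0.28, and neuron and choroid plexus genes 1 of 9, with a median of 0.19. The part of these lists in the members' values was not tested. Ratios of knockout to control ranged from 0.843 to 1.27 over the 85 members.

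Cox6a2 had the smallest p in CDS knockouts. It stood at 101, 96.1, 98.2 and 93.6 CPM in CDS knockouts 1 to 4 and at 117, 122, 108 and 100.02 CPM in CDS controls 1 to 4. The highest knockout thus lay just above the lowest control. The ratio was 0.87 (95% interval 0.81 to 0.935), or -0.20 ± 0.05 on the log2 scale (SE; n = 4 in each group; edgeR, Benjamini-Hochberg adjusted p = 0.517). The adjusted p passed the threshold without CDS control 4, where it was 0.0424, and without the filter on low counts, where it was 0.0261.

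Cox5b, a zinc-binding subunit of complex IV, was the only member whose CDS groups did not overlap, lower in knockouts, against 1.32% of all genes. It stood at 263, 259.9, 250.2 and 261 CPM in CDS knockouts and at 292, 305, 274 and 269 CPM in CDS controls. The log2 change was -0.14 ± 0.04 (SE; edgeR, Benjamini-Hochberg adjusted p = 1.00). Ndufa8 and Ndufa7, accessory subunits of complex I, had log2 changes of -0.10 ± 0.05 and -0.09 ± 0.04 (SE) that did not pass. Cox6b2 had one of 0.23 ± 0.11 (SE) at means of 6.42 and 5.50 CPM. Atp5a1 stood at 2029.8 ± 123 CPM in CDS knockouts and at 2075 ± 95.7 CPM in CDS controls (SD, n = 4 each).

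The same question was asked of the PAS line, and again no member passed (edgeR quasi-likelihood fit with Benjamini-Hochberg adjustment), against 0.00987% of all genes. DESeq2 and limma-voom called 0, and 2 members had an unadjusted p under 0.05, or 2.35% against 5.24% of all genes. The values lay on both sides of 0, with 46 of 85 below it, or 54.1% against 50.6% of all genes, and a median of -0.01 against -0.00. Ratios ranged from 0.921 to 1.11. PAS controls numbered 3, so this comparison had less precision, with a median SE of 0.057 against 0.052 in the CDS line.

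The PAS members with the smallest p were small parts of complexes V and I. Atp5l, subunit g in the membrane part of ATP synthase, stood at 76.8, 83.2, 74.4 and 79.6 CPM in PAS knockouts and at 88.1, 81.0 and 86.6 CPM in PAS controls. The groups overlapped, and the log2 change was -0.12 ± 0.05 (SE, n = 4 and 3; edgeR, Benjamini-Hochberg adjusted p = 0.934). Atp5j2, subunit f of the same membrane part, had a log2 change of -0.11 ± 0.05. Ndufs5 and Ndufs6, accessory subunits of complex I, had changes of -0.12 ± 0.06 and -0.10 ± 0.05. Ndufa5, a subunit of the peripheral arm, had one of 0.14 ± 0.07 (SE).

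Without overlap of the PAS groups, 6 members were lower (Atp5j2, Ndufs5, Ndufs6, Cox6a2, Atp5d and Ndufc2), or 7.06% against 2.38% of all genes. Ndufs8, a core iron-sulfur subunit of complex I, was higher without overlap, 1.18% against 2.21% of all genes. It stood at 66.8, 67.6, 67.6 and 70.6 CPM in PAS knockouts and at 65.9, 59.6 and 62.1 CPM in PAS controls. Erythroid markers had a median log2 change of -0.48 in this comparison with 11 of 12 below 0 and none called, and their part in the members' values was not tested.

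The difference between the 2 knockout effects was tested directly and no member passed (edgeR quasi-likelihood fit with Benjamini-Hochberg adjustment), against 0.00493% of all genes. DESeq2 and limma-voom called 0, and 1 member had an unadjusted p under 0.05, or 1.18% against 4.16% of all genes. The difference was below 0 for 24 of 85 members, or 28.2% against 50.1% of all genes. That member was Ndufa12, an accessory subunit of complex I. It stood at 95.8, 96.0, 89.6 and 90.9 CPM in CDS knockouts and at 112, 116, 85.2 and 96.2 CPM in CDS controls. In the PAS line it stood at 84.6, 86.4, 93.5 and 93.1 CPM in knockouts and at 72.6, 87.7 and 81.6 CPM in controls. Its groups overlapped in both lines, and the difference of log2 changes was 0.28 ± 0.12 (SE; edgeR, Benjamini-Hochberg adjusted p = 0.995). For the mean of both knockout changes, a contrast added after the first results were seen, no member was called by edgeR against 0.0789% of all genes. At an unadjusted p under 0.05 that contrast held 5 members, 4 lower and 1 higher, or 5.88% against 3.70% of all genes. Cox6a2 was again the smallest p, with a mean log2 change of -0.15 ± 0.04 (SE; edgeR, Benjamini-Hochberg adjusted p = 0.369).

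The share of Cox6a2 in its pair does not depend on how a library is scaled. It was 30.5%, 29.6%, 30.6% and 28.8% in CDS knockouts and 32.3%, 31.9%, 32.3% and 31.5% in CDS controls. In the PAS line it was 27.9%, 29.7%, 28.9% and 28.2% in knockouts and 30.0%, 29.9% and 31.8% in controls. Every knockout thus had a lower share than every control of its line. The margin in the PAS line was small, with 29.7% in the highest knockout and 29.9% in the lowest control. These shares rest on 2008 to 4644 counts of Cox6a2 per library. Of the 8 isoform sets, 2 were separated in this way in CDS libraries and 1 in PAS libraries. The other in the CDS line was the c-ring, where Atp5g1 made up 12.0% to 13.0% in knockouts and 13.1% to 14.1% in controls. In the PAS line Atp5g1 made up 13.4% to 14.3% in knockouts and 13.1% to 14.3% in controls. No test was run on the shares.

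**Figure D2:**
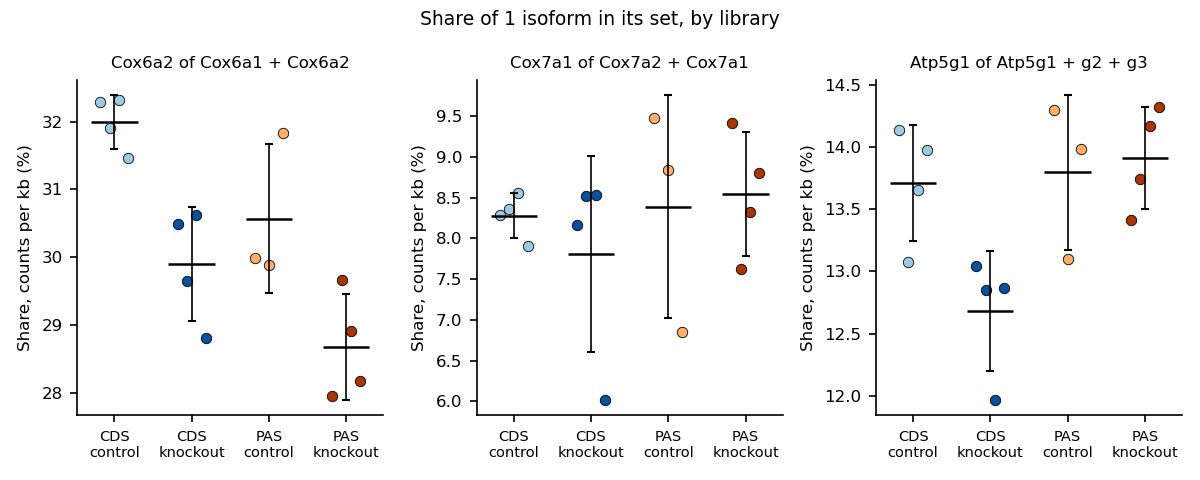
Share of 1 isoform within its set in each library, in percent of counts per kb. Points are libraries, bars the mean and SD of each group, and the vertical axes do not start at 0. The Cox6a2 share of the knockouts lies below that of the controls in each line, while the Cox7a1 shares overlap and 1 CDS knockout is low at 6.02%.

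The lines themselves were compared next, first by their controls. Of the 85 members 6 were lower in PAS controls than in CDS controls and none was higher (edgeR quasi-likelihood fit, p adjusted by Benjamini-Hochberg over all genes), against 0.143% of all genes called and 0.109% called lower. They were Ndufb3, Cox8a, Cox5b, Uqcrb, Ndufa4 and Cox6a2, of which 4 belong to complex IV. Log2 differences were below 0 for 77 of 85 members, or 90.6% against 48.7% of all genes. The groups did not overlap, with PAS lower, for 27 members, or 31.8% against 5.16% of all genes, and for none with PAS higher, against 4.30%. At an unadjusted p under 0.05, 42 members were lower, or 49.4% against 5.34% of all genes. The number called differed between fits: a fit of these 2 groups alone called 0 and DESeq2 called 14. Without PAS control 1 it was 1, without PAS control 2 it was 2, and without CDS control 3 or CDS control 4 it was 11.

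Ndufb3, an accessory subunit of the membrane arm of complex I whose gene lies at chr1:58625543-58635123 (GRCm39, plus strand), had the smallest p. It stood at 37.5, 39.8 and 43.2 CPM in PAS controls and at 51.0, 52.9, 49.0 and 47.7 CPM in CDS controls. The knockouts lay close to the controls of their lines, with 41.4, 43.5, 41.9 and 40.8 CPM in PAS knockouts and 51.1, 49.7, 50.01 and 50.6 CPM in CDS knockouts. No PAS library reached the lowest CDS library. The log2 difference between controls was -0.32 ± 0.05 (SE, n = 3 and 4; edgeR, Benjamini-Hochberg adjusted p = 0.00432).

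Cox8a stood at 244, 259 and 269 CPM in PAS controls and at 341, 347, 299.97 and 298 CPM in CDS controls. CDS controls 1 and 2 were higher than CDS controls 3 and 4, and all 4 were above the PAS controls. The log2 difference was -0.32 ± 0.05 (SE; edgeR, Benjamini-Hochberg adjusted p = 0.00617). Cox5b stood at 239.8, 234 and 246 CPM in PAS controls beside the CDS values given above, a log2 difference of -0.25 ± 0.04 (SE; edgeR, Benjamini-Hochberg adjusted p = 0.00856). Its CDS knockouts, at 250.2 to 263 CPM, lay between the controls of the lines.

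Uqcrb, a small subunit of complex III, stood at 118, 109.9 and 118 CPM in PAS controls and at 141, 148, 134 and 132 CPM in CDS controls. Ndufa4 stood at 181, 181 and 187 CPM in PAS controls and at 231, 244, 206 and 204 CPM in CDS controls. Cox6a2 stood at 90.1, 87.6 and 95.4 CPM in PAS controls, below all CDS controls. Their log2 differences were -0.27 ± 0.05, -0.27 ± 0.05 and -0.30 ± 0.06 (SE), with edgeR's Benjamini-Hochberg adjusted p of 0.0102, 0.0162 and 0.0177. At the other end, Atp5a1, Cycs and Atp5l had log2 differences of -0.01 ± 0.05, -0.01 ± 0.05 and 0.01 ± 0.05 (SE).

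**Figure D3:**
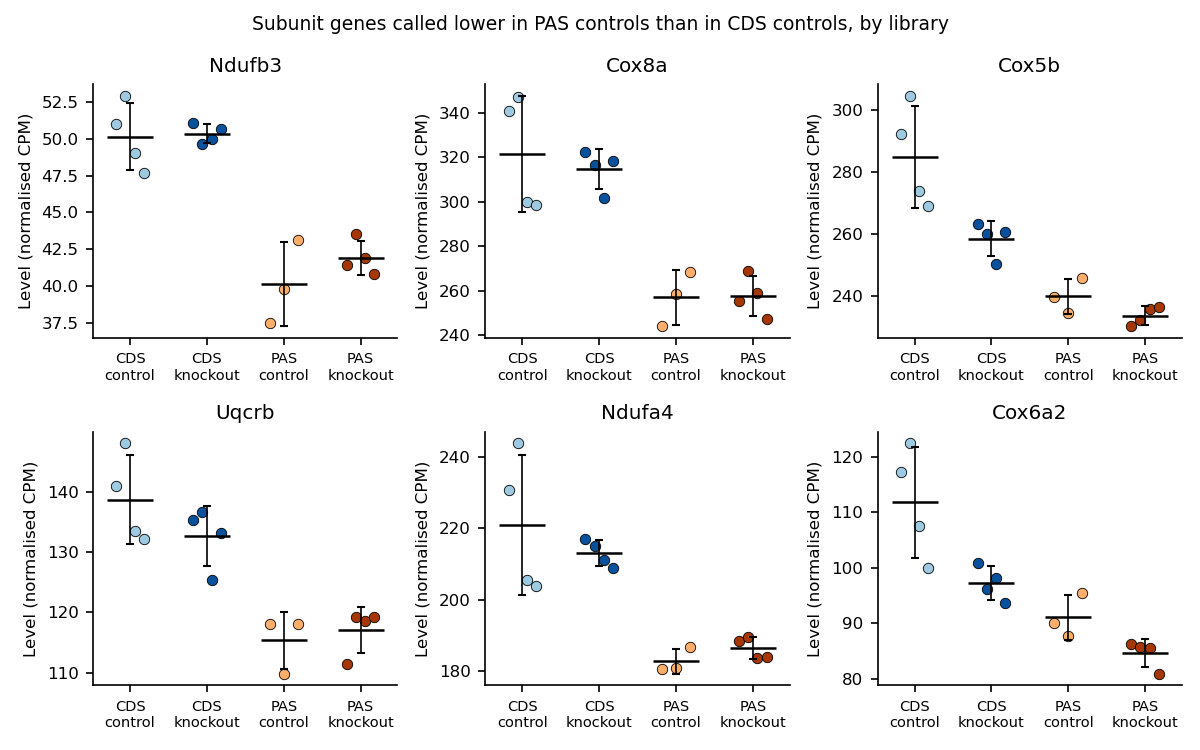
Level in each library, in normalised CPM, of the 6 subunit genes lower in PAS controls than in CDS controls. Points are libraries, bars the mean and SD of each group, and the vertical axes do not start at 0. No PAS library reaches a CDS library except in Cox6a2, where PAS control 3 at 95.4 CPM lies above CDS knockout 4 at 93.6 CPM. CDS controls 1 and 2 lie above CDS controls 3 and 4 in all 6 genes.

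The knockouts of the lines are other libraries, so the line difference was read again in them, in a comparison added after the first results were seen. Between PAS and CDS knockouts, 18 members were lower and none was higher (edgeR quasi-likelihood fit with Benjamini-Hochberg adjustment), against 1.17% of all genes called and 0.888% called lower. Log2 differences were below 0 for 71 of 85 members, or 83.5% against 48.9% of all genes. The groups did not overlap, with PAS lower, for 30 members, or 35.3% against 4.82% of all genes. Of the 6 genes called between controls, all 6 had negative values here and 4 were called (Ndufb3, Uqcrb, Cox8a and Ndufa4). This contrast also carries the difference between the deletions, which no member passed when it was tested. The count was 11 by limma-voom and 24 by DESeq2. Leaving out single libraries gave 5 to 21, with 5 without CDS knockout 2, without CDS knockout 4 or without PAS knockout 4. It was 6 without PAS knockout 3, 8 without PAS knockout 1 and 9 without CDS knockout 1. Without both CDS knockouts 3 and 4 it was 3, while the median log2 difference was -0.19 for short and -0.08 for long members. The log2 differences there were -0.26 for Ndufb3 and -0.21 for Uqcrb, beside -0.26 and -0.18 with these libraries.

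Ndufs5 differed the most among the called members. It stood at 48.0, 49.3, 50.6 and 47.4 CPM in PAS knockouts and at 64.4, 62.1, 59.3 and 65.5 CPM in CDS knockouts. The groups were far apart, and the log2 difference was -0.36 ± 0.05 (SE, n = 4 and 4; edgeR, Benjamini-Hochberg adjusted p = 0.000666). Next by p was Atp5k, subunit e in the membrane part of ATP synthase, at 96.3 ± 3.01 against 117 ± 2.55 CPM (SD, n = 4 each) and a log2 difference of -0.29 ± 0.04 (SE; edgeR, adjusted p = 0.00115). The 18 comprised Ndufa1, Ndufa2, Ndufb3, Ndufc2, Ndufs5 and Ndufs6 of complex I and Uqcrb, Uqcrh and Uqcrq of complex III. They further held Cox6c, Cox7a2, Cox7b, Cox8a and Ndufa4 of complex IV and Atp5g2, Atp5g3, Atp5j2 and Atp5k of complex V. Among them Ndufa2 had a log2 difference of -0.35 ± 0.06, Uqcrq of -0.24 ± 0.06 and Uqcrh of -0.17 ± 0.04 (SE), the smallest of the 18 in size. Of the 7 core subunits of complex I none was called, with a median log2 difference of -0.01 here and of -0.07, with all 7 below 0, between controls. The core subunits of complex III had a median of -0.04 and the c-ring genes, 2 of 3 of them called, one of -0.20. Ndufs1, the largest iron-sulfur subunit, stood at 297 ± 20.9 against 296 ± 20.02 CPM (SD). Uqcrc1, a core protein of complex III, stood at 310.2 ± 7.86 against 314 ± 16.8 CPM.

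Short and long members were treated separately, divided at the median summed exon length of 1559.5 bases. Between controls, the 41 tested short members had a median log2 difference of -0.17 and the 44 long ones -0.09. All tested genes of the same lengths had medians of -0.05 and 0.01. Protein-coding genes of at least 20 CPM that are no members had -0.05 and -0.00. Between knockouts the medians of the members were -0.15 for short and -0.06 for long ones, against -0.06 and 0.01 for all genes. Of the calls, 5 of 6 between controls and 13 of 18 between knockouts were of short members. Within lines the classes differed little: the CDS knockout medians were -0.04 for short and -0.03 for long members, and the PAS knockout medians were -0.01 for both. Leaving out single libraries moved the CDS medians between -0.08 without CDS control 3 and -0.01 without CDS control 2 for short members. For long members it moved them between -0.06 without CDS control 3 and -0.00 without CDS knockout 3. Cytosolic ribosomal protein genes, which are short as well, had medians of -0.03 between controls and -0.07 between knockouts. Mitochondrial ribosomal protein genes had 63 of 77 below 0 between controls, or 81.8%, with a median of -0.05 and 17 lower at an unadjusted p under 0.05. Between knockouts they had 53 of 77 below 0, with a median of -0.04 and 3 called lower. By complex, the median between controls was -0.19 in complex IV, -0.14 in complex I, -0.13 in complex III, -0.11 in complex II and -0.10 in complex V.

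**Figure D4:**
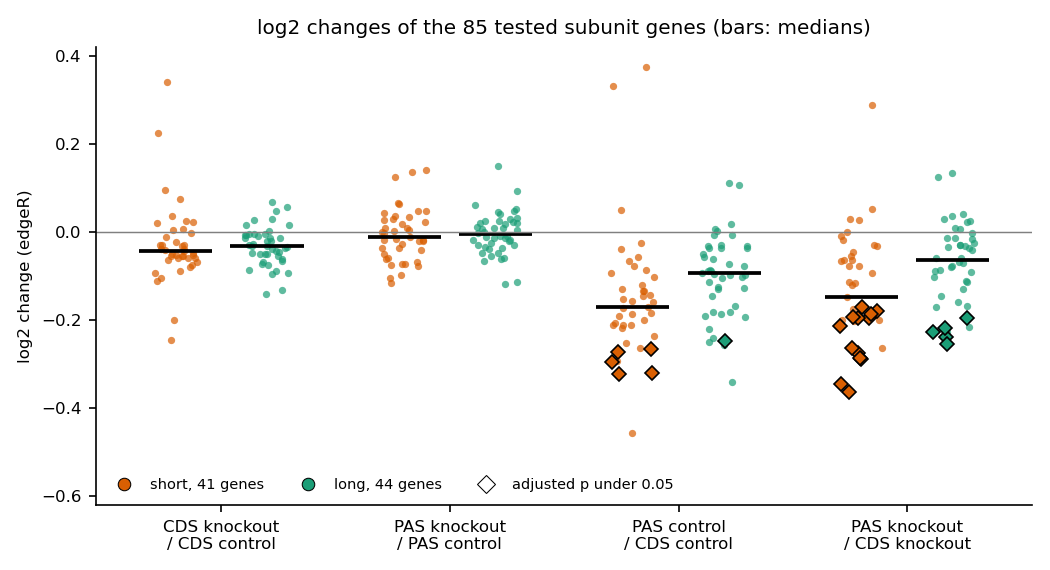
Log2 changes of the 85 tested subunit genes in 4 comparisons, short genes in orange and long genes in green. Each point is a gene, black bars are medians, and diamonds mark an adjusted p under 0.05. Both knockout comparisons centre close to 0, while both line comparisons lie mostly below it, with 6 and 18 genes called.

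The lines were counted in separate runs, differ in depth in every library, and come from separate mouse lines, so line, run and depth cannot be told apart. Ttr, a choroid plexus gene, moved with the line at 11.2 to 154 CPM in CDS libraries and 0.263 to 0.742 CPM in PAS libraries. The high values were 104 and 154 CPM in CDS knockouts 3 and 4, against 11.2 to 35.2 CPM in the other CDS libraries. Between knockouts, erythroid markers had a median log2 difference of -0.53 with 11 of 12 below 0 and none called. The part of either tissue in the members' values was not tested. CDS controls also differed among themselves. Their members summed to 18160 and 18325 CPM in replicates 1 and 2 and to 16316 and 16444 CPM in replicates 3 and 4. CDS knockouts summed to 15896 to 17442 CPM, PAS knockouts to 15689 to 16883 CPM and PAS controls to 15809 to 16230 CPM. Short members alone summed to 4848 to 5619 CPM in CDS libraries and to 4534 to 4847 CPM in PAS libraries.

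**Figure D5:**
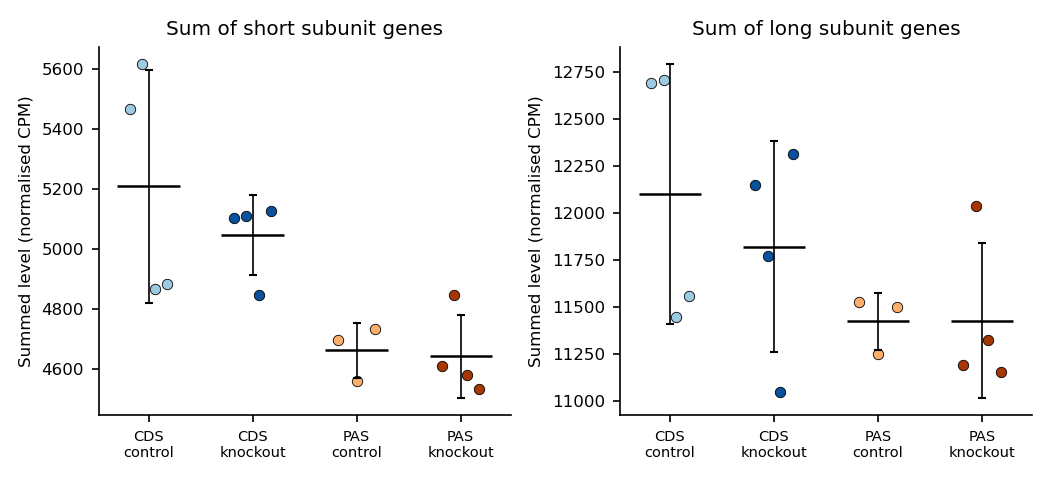
Summed level of the short and of the long subunit genes in each library, in normalised CPM. Points are libraries, bars the mean and SD of each group, and the vertical axes do not start at 0. CDS controls 1 and 2 lie above CDS controls 3 and 4, and the short genes reach at most 4847 in the PAS line and at least 4848 in the CDS line.

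Promoters were examined because subunit genes of several complexes were lower together in the PAS line. The windows hold 250 bases before and 50 after each start, from RefSeq (GRCm38.p6), and 70 of the 87 symbols matched. Bases upstream of the start of 4 genes that were lower in PAS controls are shown first, 5′ to 3′ on the strand of the gene, with capitals for a CCAAT box on either strand.
Ndufb3, chr1:58586247-58586396, plus strand: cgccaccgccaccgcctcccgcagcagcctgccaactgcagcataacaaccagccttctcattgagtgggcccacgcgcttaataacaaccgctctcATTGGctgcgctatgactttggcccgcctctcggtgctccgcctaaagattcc
Cox8a, chr19:7217617-7217766, minus strand: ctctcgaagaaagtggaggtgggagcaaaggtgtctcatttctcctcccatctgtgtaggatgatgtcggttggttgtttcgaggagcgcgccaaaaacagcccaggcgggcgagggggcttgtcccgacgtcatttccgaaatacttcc
Cox5b, chr1:36691337-36691486, plus strand: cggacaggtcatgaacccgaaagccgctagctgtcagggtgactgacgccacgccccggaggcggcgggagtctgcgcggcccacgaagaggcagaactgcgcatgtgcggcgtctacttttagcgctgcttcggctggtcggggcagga
Ndufa4, chr6:11907451-11907600, minus strand: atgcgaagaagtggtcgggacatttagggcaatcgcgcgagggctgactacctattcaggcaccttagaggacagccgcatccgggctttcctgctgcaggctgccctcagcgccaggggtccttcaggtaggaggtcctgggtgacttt
The shown bases hold the box for Ndufb3. Cox8a holds it elsewhere in its window, outside the shown bases.

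NRF1 is a transcription factor known to drive many respiratory chain genes in mammals. Its site, searched as GCGCA, any base and then GCGC on both strands, was in 16 of 70 member windows, or 22.9%, against 6.60% of 17491 protein-coding windows. Of the 18 genes called lower in PAS knockouts than in CDS knockouts, 14 have a window and 5 of these hold the site (Ndufs5, Ndufs6, Atp5k, Atp5g2 and Atp5g3). The sites of 3 of them are shown with flanking bases, the site in capitals.
Ndufs5, chr4:123718265-123718294, minus strand: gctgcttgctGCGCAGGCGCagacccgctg
Atp5k, chr5:108434430-108434459, minus strand: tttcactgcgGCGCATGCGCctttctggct
Atp5g2, chr15:102671070-102671099, minus strand: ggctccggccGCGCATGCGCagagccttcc
These sites end 88, 40 and 32 bases before the annotated start. Of the 6 genes lower in PAS controls, Uqcrb and Cox6a2 have no window, so the site could not be searched there. The others are not among the 16 with this site. A site for YY1, searched as AANATGGC, was in 15 windows, or 21.4% against 6.69%. An ETS site, searched as CCGGAAG, was also in 15, or 21.4% against 11.9%. CCAAT was in 31, or 44.3% against 39.0%. The composite element that ATF4 is known to bind, searched as TGATGNAA, was in none of the 70 windows against 3.69% of all. All were searched on both strands, and a match or its lack is a description of these letters in this window.

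The partners of the nuclear subunits were read from lists. The 13 protein genes of mitochondrial DNA, whose products join the nuclear subunits in the inner membrane, had no call in either knockout comparison. They summed to 39854 to 45789 CPM in CDS controls and 34594 to 45548 CPM in PAS controls. Of them mt-Co1, a catalytic subunit of complex IV, had log2 changes of -0.08 ± 0.06 in CDS knockouts and 0.07 ± 0.07 in PAS knockouts, and mt-Cytb, of complex III, -0.09 ± 0.09 and 0.06 ± 0.10 (SE). Between controls mt-Co3 was the one called, higher in the PAS line by 1.21 ± 0.20 (SE; edgeR, Benjamini-Hochberg adjusted p = 0.00680), at a mean of only 1.86 CPM beside 13948 CPM for mt-Co1. It was higher between knockouts too, by 0.97 ± 0.19 (SE; edgeR, adjusted p = 0.0106). Of the 13 genes 7 were below 0 between controls, with a median of -0.05, and none was below 0 between knockouts of the lines, with a median of 0.22.

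Among 44 tested assembly factors, which build the complexes but are not part of them, none was called in either knockout comparison or between controls. Between controls 36 of the 44 were below 0, with a median of -0.07, and 9 were lower and 0 higher at an unadjusted p under 0.05 (edgeR). Coa5 and Cox15, factors of complex IV, had log2 changes of -0.03 ± 0.04 and -0.01 ± 0.04 in CDS knockouts and of -0.00 ± 0.05 and 0.07 ± 0.04 in PAS knockouts (SE). Cox17, the copper chaperone of complex IV, was lower in PAS than in CDS knockouts by a log2 difference of -0.31 ± 0.05 (SE; edgeR, Benjamini-Hochberg adjusted p = 0.00184). No other assembly factor was called there, so 1 of 44 was, against 1.17% of all genes. Of the 44, 27 were below 0, with a median of -0.03. Among 20 regulators of mitochondrial biogenesis none was called in the knockout comparisons. Ppargc1a, the coactivator of this program, had log2 changes of -0.05 ± 0.09 and 0.04 ± 0.09 and Yy1 of -0.00 ± 0.04 and -0.00 ± 0.04 (SE). Esrra, a nuclear receptor of respiratory genes, was lower in PAS than in CDS knockouts by -0.18 ± 0.04 (SE; edgeR, adjusted p = 0.0302). It was the only one of the 20 called there, and 7 of the 20 were below 0, with a median of 0.02.

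Hccs, which attaches haem to cytochrome c, had log2 changes of 0.02 ± 0.04 and 0.07 ± 0.05 in CDS and PAS knockouts (SE). Ndufb1-ps, whose type in the annotation kept it out of the members, followed them between knockouts of the lines at -0.30 ± 0.06 (SE; edgeR, Benjamini-Hochberg adjusted p = 0.00882). No marker of cardiomyocytes, endothelium, epicardium, mesenchyme, erythroid cells, leukocytes, liver or neurons and choroid plexus was called in either knockout comparison or between controls. Between knockouts of the lines Egfl7 of endothelium and Ttr and Enpp2 of the choroid plexus list were lower in the PAS line. Of the endothelium list only 3 of 14 were below 0 there, with a median of 0.03. At an unadjusted p under 0.05 (edgeR), 4 of them were higher and 1 lower. Of the neuron and choroid plexus list 6 of 9 were below 0, with a median of -0.12. The medians of the cardiomyocyte list were -0.02 between controls and 0.02 between knockouts of the lines. Mesenchyme markers had 0 of 11 below 0 between controls, with a median of 0.20, and 6 of 11 below 0 between knockouts, with a median of -0.03. Their part in the members' values was not tested.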

How the data were processed

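RNA-seq was deposited for 15 libraries of E11.5 mouse ventricle. The authors deposited whole-number counts of read pairs per gene, made with featureCounts 2.1.1 without a strand or multi-mapping option and in separate runs for the lines, per the file headers; coordinates are GRCm39. HISAT2 2.2.1 and STAR 2.7.11b are named without a role, per the submitters' processing notes. The labels' protocols conflict: the design text gives ventricle RNA and a stranded mRNA kit, the extract protocol cultured cortical neurons and rRNA depletion. Gene names came from GENCODE M21 by identifier, for 51536 of 78317 genes and 98.9% of counts.

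Counts were filtered (filterByExpr, minimum count 10), scaled by TMM and fitted over all 15 libraries with edgeR 4.0.16 (R 4.3.3), quasi-likelihood, group means and 11 residual degrees of freedom. P-values were Benjamini-Hochberg adjusted over 20269 genes, with calls at 0.05. DESeq2 1.42.0, limma-voom (limma 3.58.1), another scaling, no filter, only the compared groups, a replicate block and single libraries left out were alternatives. Scripts were tested on simulated data. Replicates are labelled as biological, while the labels do not say from which embryos they came, and p-values measure the spread between these samples. The intervals of ratios come from the edgeR fit and include the spread between libraries, while the floor for Cox8c covers counting error only.

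Named members were those called between knockouts and controls or between controls, the isoform sets, the 2 highest per kb and the longest and shortest of each complex, and the 5 with the smallest p in each knockout contrast, with Atf4 and called or abundant genes of the pathway lists. Members called between knockouts of the lines, and a few others, were named after their values were seen. The members and lists were chosen with earlier results of these data known. The design text gives 4 replicates per genotype; 3 PAS controls were analysed here. Library totals were 22623499 to 46472141 counts. A result for 1 member is not reported here.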

Additional observations from a re-analysis of the deposited data

Results flagged for a closer look

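Of 153 groups of 4 libraries examined, 9 held a library far from the other 3, and chance flags about 1 in 20 groups. PAS knockout 2 was the far library in 4 of them: Atp5b at 1486 CPM against 1286 to 1300, Uqcrfs1 at 261 against 236 to 239, the complex I sum at 3809 against 3518 to 3544 and the complex V sum at 6901 against 6361 to 6438. CDS knockout 3 was low in the sum of short members, at 4848 CPM against 5105 to 5128, and in the complex IV sum, at 2850 CPM against 2969 to 2987. Cox6a2 was low in PAS knockout 4 at 80.9 CPM against 85.6 to 86.3. Uqcrb was low in PAS knockout 1 at 111 CPM against 119 in the others. The Cox7a1 share was low in CDS knockout 4 at 6.02% against 8.16% to 8.53%.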

How the results depend on the processing

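No called change turned its direction, while medians close to 0 did. Leaving out single libraries gave median log2 differences between controls of -0.20 to -0.13 for short and -0.12 to -0.07 for long members, and PAS knockout medians of -0.03 to 0.01 and -0.04 to 0.01. The medians of the difference between lines lay between -0.00 and 0.08 for short and between -0.01 and 0.05 for long members, and the long median of both changes between -0.03 and 0.01. Of 1886 recomputed log2 changes of named members in the knockout contrasts, 101 changed sign. No member was called in the PAS comparison or in the difference between lines under any alternative. Without the filter on low counts 1 member was called in CDS knockouts, 1 in the mean of both knockout changes, 28 between controls and 29 between knockouts of the lines. Between controls DESeq2 called 14 and a fit of only those groups 0, with 39 members at an unadjusted p under 0.05. Between knockouts of the lines limma-voom called 11, and 3 were called without CDS knockouts 3 and 4; this comparison and the mean of both changes were chosen after seeing the data. Leaving out single libraries gave 0 to 1 calls in CDS knockouts and in the mean of both changes, 1 to 11 between controls and 5 to 21 between knockouts of the lines. The cause was not tested. Same-numbered replicates correlated at -0.185 to 0.0627 and differently numbered ones at -0.140 to 0.199. With so few pairs these values cannot show whether the numbers mark a pairing. With a replicate block 0 members were called in CDS knockouts, 6 between controls and 13 between knockouts of the lines. Depth limits Cox7b2 and Cox8c, which were too low to test.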
